A study of Mus musculus with 8 samples.

Results

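The ADAMTS proteases Adamts1, Adamts4, Adamts5, Adamts9 and Adamts15, the membrane protease Adam8 and the 4 tissue inhibitors of metalloproteinases, Timp1 to Timp4, were followed in whole ankle joints of mice. Members were the probe sets annotated to one of these 10 genes and to no other gene. They comprised 25 of the 45101 probe sets of the array table, and every one of the 10 genes had at least 1. The samples fall into 3 groups, all at 5 months of age, with 1 Affymetrix array per sample. The first group, 3 arrays, came from mice that overexpress a human TNF alpha transgene (hTNF) and are labelled as functionally null for sphingosine kinase 1 (Sphk1). The second, 3 arrays, is labelled as carrying the hTNF transgene with normal Sphk1. The third, 2 arrays, was wild type, so both transgenic groups were compared with the same 2 arrays. The sources used here name neither the promoter and line of the transgene nor the way Sphk1 was inactivated, and they do not say whether the mice of a group came from separate litters. The p-values below thus speak of the variation among these 8 arrays, which may be partly technical.

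ADAMTS proteases are secreted zinc enzymes that cut the large proteoglycans of the extracellular matrix, and Adamts4 and Adamts5 are the best known aggrecanases, which cut aggrecan in cartilage. Adam8 is a membrane-anchored relative carried by myeloid cells and osteoclasts, and it cuts adhesion and matrix proteins. TIMPs block these enzymes and the matrix metalloproteinases by binding the active site. Timp3 is the family member that is bound to the matrix and the one that inhibits Adamts4, Adamts5 and Adam17, while Adam8 is known to be poorly inhibited by TIMPs.

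Levels were analysed as deposited, on a log2 scale, so that a difference of 1 is a doubling. A probe set was tested when it exceeded the table median of 6.87 on at least 2 of the 8 arrays, and 23 of the 25 member probe sets passed. The 2 others, an Adamts5 probe set at 3.91 to 4.10 and a Timp2 probe set at 4.40 to 5.41, stayed low on all arrays. A gene is represented by its brightest tested probe set, a level is compared only with the same probe set on other arrays, and called means a Benjamini-Hochberg adjusted p under 0.05 in limma over all 24115 tested probe sets. Errors of differences are standard errors from that fit.

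Some facts about the arrays bear on the values below. The tested Sphk1 probe set read 9.94 to 10.22 on the arrays labelled Sphk1 null and 8.28 to 8.65 on the hTNF arrays. It read 7.16 to 7.25 on the wild-type arrays, so its signal was highest in the group labelled null (1.53 ± 0.13 above hTNF, adjusted p = 0.0164). The other Sphk1 probe set stayed below 6.87 on all arrays and was not tested. Its means were 6.473 in joints labelled null, 6.587 in hTNF joints and 6.255 in wild type. On it, the arrays labelled null overlapped with both other groups. The transcript signal on the tested probe set thus does not bear out the label, and the other probe set was too low to decide. Whether the labels are right, or the loss is one that leaves this transcript, was not tested, and both hTNF groups are called by their labels, null and normal, throughout. Signal of the X-inactivation transcript Xist together with a Y-linked transcript was present on array 1 labelled null, array 1 of hTNF and array 2 of wild type, and the labels do not say whether an array holds RNA of 1 mouse or of several. Of the other arrays, both labelled null and hTNF array 3 had Xist at 12.89 to 13.16 and the Y-linked Eif2s3y at 3.46 to 3.81, while hTNF array 2 and wild-type array 1 had Xist at 7.29 and 7.45 and Eif2s3y at 8.75 and 8.86. Sex-linked signal was thus unbalanced between the groups, and without the 3 mixed arrays it cannot be told apart from the difference between joints labelled null and wild type. Summed linear signal of keratinocyte markers was highest on array 1 labelled null, at 17150, and array 1 of hTNF, at 41320. It was 8580 and 5929 on array 3 of these groups, 969.8 and 783.5 on array 2, and 3719 and 1294 on the wild-type arrays. Arrays correlated at 0.962 to 0.985 within a group, at 0.95 to 0.99 between the transgenic groups and at 0.862 to 0.916 between transgenic and wild-type arrays.

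Against wild type, the transgenic joints had much more Adam8 and Timp1, more Adamts4, Adamts15 and Timp2, and less Timp3 and Timp4, whether or not they were labelled Sphk1 null. In joints labelled Sphk1 null, 8 of the 10 genes were called, 5 higher and 3 lower, in a comparison in which 43.0% of all 12362 genes were called, 19.1% higher and 23.8% lower. In hTNF joints labelled normal for Sphk1, 9 of 10 were called, 5 higher and 4 lower, against 36.1% of all genes, 16.5% higher and 19.6% lower. The median absolute log2 difference over the 10 genes was 1.14 in joints labelled null and 0.82 in hTNF joints, while over all genes it was 0.33 and 0.28 in the same comparisons. The 10 genes were chosen with earlier results of these data known, so these counts and medians are no independent test. Whole joints were measured, so fewer cells of a type and less RNA per cell cannot be told apart in any of these values.

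**Figure D1:**
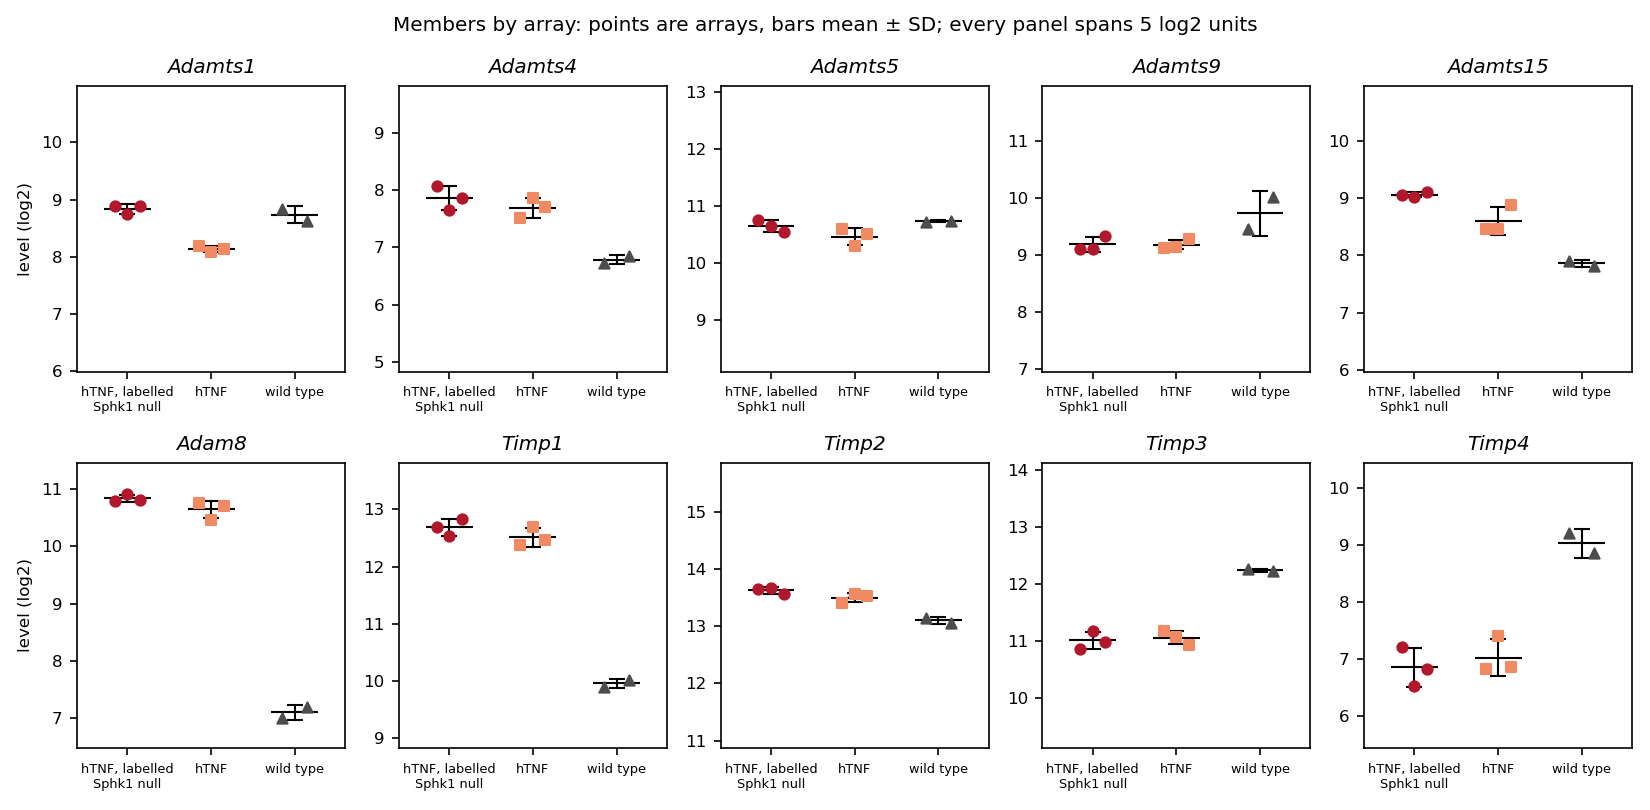
Level (log2) of the brightest probe set of each of the 10 genes on the 8 arrays, with group mean and SD as bars; every panel spans 5 log2 units. Adam8 and Timp1 lie far above wild type on all 6 transgenic arrays, Timp3 and Timp4 lie below it, and Adamts1 is low only on the 3 arrays of hTNF joints labelled normal for Sphk1.

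Adam8 changed most among the members. Its 1 probe set read 10.80, 10.91 and 10.81 in joints labelled null, 10.76, 10.47 and 10.71 in hTNF joints, and 7.0 and 7.19 in wild-type joints. No transgenic array came within 3 log2 units of a wild-type array. Adam8 rose 13.4-fold in joints labelled null (log2 difference 3.75 ± 0.12, adjusted p = 9.31e-07) and 11.7-fold in hTNF joints (3.55 ± 0.12, adjusted p = 1.64e-06). By p-value it ranked 3 of 24115 probe sets in each of these comparisons.

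The same joints differed in their myeloid cell markers, and these values stand beside that of Adam8. Of 10 macrophage markers, 9 rose in both transgenic groups, with a summed linear signal of 75600 to 83400 in joints labelled null, 65000 to 76100 in hTNF joints and 25400 to 26600 in wild type. Osteoclast markers summed to 24500 to 25300 in joints labelled null, 20600 to 27200 in hTNF joints and 5790 to 12600 in wild type, with 7 of 9 tested markers higher in joints labelled null and 6 of 9 in hTNF joints. Neutrophil marker sums overlapped between groups, at 14500 to 39900 in joints labelled null, 12300 to 23500 in hTNF joints and 3640 to 33300 in wild type. Of 8 tested neutrophil markers, 1 was higher in both transgenic groups and 0 were lower. The higher one, Csf3r, differed by 1.21 ± 0.17 in joints labelled null and 0.96 ± 0.17 in hTNF joints (adjusted p = 0.000535 and 0.00257 in limma). Wild-type array 2, which had the highest neutrophil sum of its group, read 7.19 for Adam8. The part of macrophages, osteoclasts or neutrophils in the Adam8 difference was not tested.

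Among the aggrecanases, Adamts4 and Adamts15 rose and Adamts5 did not pass the test. Adamts4 (chromosome 1) read 8.07, 7.65 and 7.86 in joints labelled null, 7.51, 7.86 and 7.71 in hTNF joints and 6.73 and 6.84 in wild type. Every transgenic array exceeded both wild-type arrays. The differences were 1.08 ± 0.16 in joints labelled null, or 2.11-fold, and 0.91 ± 0.16 in hTNF joints, or 1.88-fold (adjusted p = 0.000674 and 0.00224). The dimmer Adamts4 probe set gave larger ones, 1.73 ± 0.20 in joints labelled null and 1.58 ± 0.20 in hTNF joints. On both probe sets the wild-type arrays lay below the filter level of 6.87. They read 6.73 and 6.84 on the brighter and 5.68 and 5.67 on the dimmer.

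Adamts15 (chromosome 9), which also cuts aggrecan and versican, read 9.06, 9.02 and 9.11 in joints labelled null, 8.46, 8.46 and 8.88 in hTNF joints and 7.91 and 7.82 in wild type. The 3 groups did not overlap. It rose by 1.20 ± 0.14 in joints labelled null (2.30-fold, adjusted p = 0.000213) and by 0.74 ± 0.14 in hTNF joints (1.66-fold, adjusted p = 0.00394).

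Adamts5 (chromosome 16), the main aggrecanase of mouse cartilage, read 10.76, 10.64 and 10.55 in joints labelled null, 10.59, 10.30 and 10.50 in hTNF joints and 10.72 and 10.74 in wild type. Joints labelled null overlapped with wild type, at a difference of -0.08 ± 0.11 with an interval of -0.34 to 0.18 (95% limma interval). The hTNF arrays were all lower than wild type, by a difference of -0.27 ± 0.11 that missed the threshold (adjusted p = 0.106). Its 3 tested probe sets did not share a sign in hTNF joints, with differences of -0.27, -0.08 and 0.27. The call was gained without the 2 arrays of high keratinocyte signal, at -0.33 (adjusted p = 0.0376).

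Adamts1, which cuts aggrecan and versican and lies next to Adamts5 on chromosome 16 with no protein-coding gene between, was the one member called in a single transgenic group. It read 8.89, 8.74 and 8.88 in joints labelled null, 8.19, 8.09 and 8.13 in hTNF joints and 8.84 and 8.63 in wild type. The hTNF arrays lay below all 5 others, while joints labelled null overlapped with wild type. It fell in hTNF joints to 0.661 of the wild-type level (-0.60 ± 0.12, adjusted p = 0.00351) and differed by 0.10 ± 0.12 in joints labelled null (adjusted p = 0.53). The difference between the transgenic groups did not pass its own test, as given further on.

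Adamts9 (chromosome 6), a versican- and aggrecan-cutting protease, read 9.11, 9.11 and 9.34 in joints labelled null, 9.13, 9.14 and 9.28 in hTNF joints and 9.45 and 10.01 in wild type. All transgenic arrays were below wild type, but the 2 wild-type arrays were 0.56 apart. It fell by 0.54 ± 0.17 on the log2 scale in joints labelled null and by 0.55 ± 0.17 in hTNF joints (adjusted p = 0.0271 and 0.0306). These calls ended without wild-type array 2, at -0.26 in joints labelled null and -0.27 in hTNF joints (adjusted p = 0.253 and 0.264). They ended too without the 3 arrays of mixed sex-linked signal, at -0.23 in joints labelled null and -0.24 in hTNF joints. They also ended without array 1 or 2 labelled null for the first difference, without any 1 of the 3 hTNF arrays for the second, and in the mean of its 3 probe sets, the other 2 of which were not called.

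The 4 inhibitors moved in opposite directions, Timp1 and Timp2 higher and Timp3 and Timp4 lower, in both transgenic groups. Timp1 (chromosome X), an inducible inhibitor of most matrix metalloproteinases, read 12.70, 12.53 and 12.83 in joints labelled null, 12.37, 12.69 and 12.47 in hTNF joints and 9.90 and 10.01 in wild type. The transgenic arrays all lay more than 2 log2 units above wild type. It rose 6.64-fold in joints labelled null (2.73 ± 0.12, adjusted p = 2.35e-06) and 5.88-fold in hTNF joints (2.56 ± 0.12, adjusted p = 4.15e-06).

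Timp2, an inhibitor that is made constitutively in many tissues and also takes part in activating Mmp2, rose modestly. Its brightest probe set read 13.65, 13.67 and 13.56 in joints labelled null, 13.41, 13.57 and 13.52 in hTNF joints and 13.14 and 13.06 in wild type. The groups did not overlap with wild type, and the rise was 1.44-fold in joints labelled null (0.53 ± 0.07, adjusted p = 0.000424) and 1.32-fold in hTNF joints (0.40 ± 0.07, adjusted p = 0.00256). All 5 tested Timp2 probe sets rose in both groups, by 0.53 to 1.13 in joints labelled null and by 0.40 to 1.17 in hTNF joints. Among the tested probe sets, the size of the Timp2 difference therefore depended on the probe set, and its direction did not. The untested one, low on all arrays, had means of 4.653 in joints labelled null, 5.003 in hTNF joints and 5.205 in wild type.

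Timp3 (chromosome 10) read 10.87, 11.18 and 10.99 in joints labelled null, 11.18, 11.07 and 10.94 in hTNF joints and 12.26 and 12.22 in wild type. Every transgenic array was more than 1 log2 unit below wild type. Timp3 was 2.34-fold lower in joints labelled null (-1.23 ± 0.11, adjusted p = 6.15e-05) and 2.26-fold lower in hTNF joints (-1.18 ± 0.11, adjusted p = 0.000119). All 4 of its probe sets fell in hTNF joints, by 0.60 to 1.21, and 3 of 4 in joints labelled null. The exception there had a difference of -0.37 ± 0.18 (adjusted p = 0.129).

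Timp4, the inhibitor known from heart, skeletal muscle and fat, had the largest decrease among the members. Its brightest probe set read 7.22, 6.53 and 6.82 in joints labelled null, 6.82, 7.40 and 6.86 in hTNF joints and 9.20 and 8.85 in wild type. The spread within groups was wider than for the other TIMPs but left the transgenic and wild-type arrays apart. Timp4 fell to 0.223 of the wild-type level in joints labelled null (-2.17 ± 0.24, adjusted p = 0.000143) and to 0.250 of it in hTNF joints (-2.0 ± 0.24, adjusted p = 0.000333). Its other probe set fell by 3.09 ± 0.37 in joints labelled null and 2.66 ± 0.37 in hTNF joints on the log2 scale. Both probe sets had transgenic values near or under the filter level of 6.87.

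Markers of several tissues also differed from wild type, some lower and some higher. Chondrocyte markers summed to 7760 to 10400 in joints labelled null, 8340 to 10800 in hTNF joints and 28100 to 31400 in wild type. Cytl1 and Chad, the brightest of them, weighed most in these linear sums. Of the 8 tested markers, 6 fell in both transgenic groups. Col2a1 was not called, at -0.33 in joints labelled null and -0.32 in hTNF joints. Neither was Col11a2, at 0.16 in joints labelled null and 0.14 in hTNF joints. Skeletal muscle markers summed to 66200 to 93300 in joints labelled null, 84300 to 103000 in hTNF joints and 183000 to 186000 in wild type. Of the 10 muscle markers, 10 fell in joints labelled null and 8 in hTNF joints, and all 8 tested adipocyte markers fell in both. The adipocyte sums were 10100 to 12500 in joints labelled null, 14000 to 18300 in hTNF joints and 40000 to 45700 in wild type. Synovial fibroblast markers moved the other way, with 6 of 10 higher and 1 lower in both groups and sums of 90100 to 96800 in joints labelled null, 83800 to 89000 in hTNF joints and 61200 to 61400 in wild type. Keratinocyte markers had no call among 8 tested in either comparison, at 970 to 17200 in joints labelled null, 784 to 41300 in hTNF joints and 1290 to 3720 in wild type. Of 10 endothelial markers, 4 fell in joints labelled null and 9 in hTNF joints, with sums given further on. The part of these tissues in the TIMP differences was not tested.

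**Figure D2:**
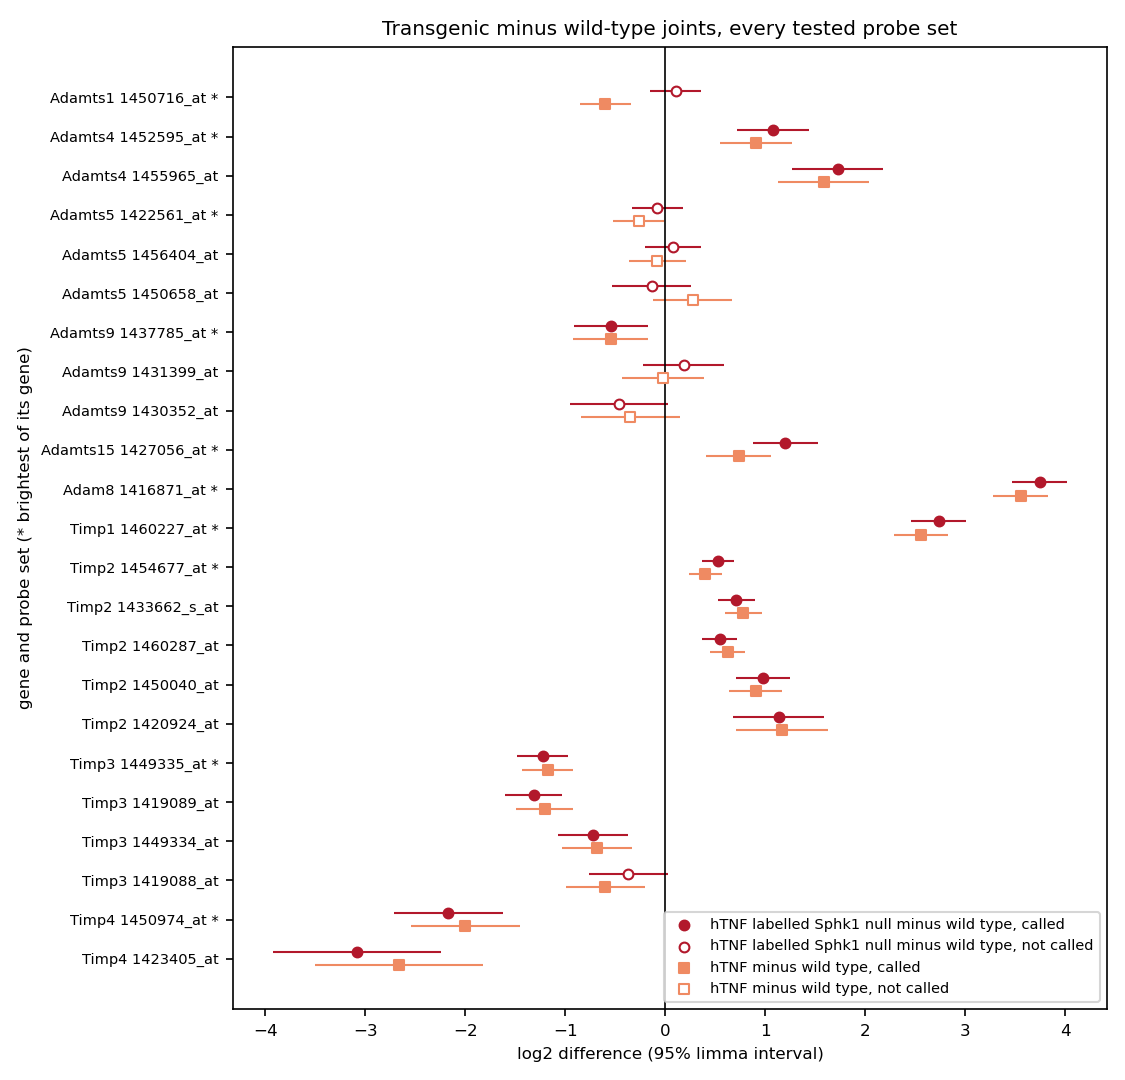
Log2 difference with its 95% limma interval for each of the 23 tested probe sets, joints labelled Sphk1 null minus wild type (circles) and hTNF minus wild type (squares), with filled symbols for called differences. Probe sets of Adamts4, Timp2, Timp3 and Timp4 share a sign within each gene in both comparisons. Those of Adamts5 differ in sign in both, and those of Adamts9 differ in joints labelled null, with 1 at 0.18, and are all negative in hTNF joints.

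Counted by probe set, 10 of 23 rose and 6 fell in joints labelled null, where 39.0% of all tested probe sets were called, and 10 rose and 8 fell in hTNF joints, where 33.0% were called. The 10 that rose in each comparison were those of Adamts4, Adamts15, Adam8, Timp1 and Timp2.

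The window of 250 bases before the RefSeq start was available for 7 of the 10 members. Those of Adam8 and Timp1, which rose most, of Timp4, which fell most, and of Adamts1, which differed most between the transgenic groups, are shown for the sequence next to each start. They come from RefSeq, build GRCm38.p6, read 5′ to 3′ on the gene's strand, and capitals mark GC boxes (GGGCGG on either strand) and the TATA box (TATAAA), which do not overlap in these windows.
Adam8, chr7:139992563-139992812, minus strand: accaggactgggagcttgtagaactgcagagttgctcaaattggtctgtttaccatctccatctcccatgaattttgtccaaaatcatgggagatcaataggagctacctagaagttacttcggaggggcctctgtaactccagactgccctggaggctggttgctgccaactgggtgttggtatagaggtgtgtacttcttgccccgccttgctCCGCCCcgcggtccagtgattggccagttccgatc
Timp1, chrX:20869916-20870165, plus strand: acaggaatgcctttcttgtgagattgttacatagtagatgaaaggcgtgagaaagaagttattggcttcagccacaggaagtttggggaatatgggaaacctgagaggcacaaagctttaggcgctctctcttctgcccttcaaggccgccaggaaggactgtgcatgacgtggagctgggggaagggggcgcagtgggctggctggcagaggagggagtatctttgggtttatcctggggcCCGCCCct
Timp4, chr6:115252206-115252455, minus strand: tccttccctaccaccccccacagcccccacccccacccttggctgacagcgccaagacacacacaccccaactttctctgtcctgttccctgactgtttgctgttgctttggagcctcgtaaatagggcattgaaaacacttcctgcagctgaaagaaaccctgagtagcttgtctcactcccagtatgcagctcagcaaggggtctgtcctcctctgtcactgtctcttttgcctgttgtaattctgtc
Adamts1, chr16:85803114-85803363, minus strand: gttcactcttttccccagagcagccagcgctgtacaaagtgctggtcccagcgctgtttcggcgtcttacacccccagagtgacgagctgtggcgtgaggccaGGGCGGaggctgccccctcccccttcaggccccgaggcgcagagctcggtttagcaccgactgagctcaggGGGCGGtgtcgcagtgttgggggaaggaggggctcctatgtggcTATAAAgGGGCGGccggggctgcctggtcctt

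GC boxes, the binding motif of Sp1-type factors, were present in 6 of the 7 member windows and in 32.7% of 32851 promoter windows of the same length. Timp4 had none, and Adamts1 had 3, with a TATA box that begins 32 bases before its start. The TATA box was found in 12.4% of all windows. No member window held the letters TGANTCA of AP-1 (6.75% of all windows) or TTCNNNGAA of STAT factors (7.02%), searched on both strands. None held the NF-kB motif, GGG and TTCC with 3 bases between (4.65%), or the MEF2 motif, CTA and TAG with 4 bases between (3.20%). The windows of Adam8 and Timp1 held 1 GC box each and none of the other motifs searched.

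Profiles over the 8 arrays, each centred on its own mean, were compared by root mean square distance on the log2 scale. The arrays fall into transgenic and wild-type blocks, so a small distance mainly describes a similar step between these blocks. Between members, Adamts4 and Adamts15 were closest at 0.222, Adam8 and Timp1 lay 0.475 apart, and Timp3 and Timp4 0.497. Timp1 and Timp4 were 2.06 apart. Among the other 12361 genes, Adam8 was nearest to Ccl7, a monocyte-attracting chemokine, at 0.243, followed by Acpp at 0.258 and Bst1 at 0.278. Timp1 was nearest to Cthrc1 at 0.112, Lrrc15 at 0.123 and Ccl9 at 0.138.

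Timp3 was nearest to Tafa5 (0.0675), Nos1 (0.0845) and Ntrk2 (0.087), and Timp4 to Cand2 (0.125), Lipe (0.127), the hormone-sensitive lipase of fat, and Txlnb (0.143). Timp2 was nearest to Akt1 at 0.0331, Hs1bp3 at 0.0417 and Pla2r1 at 0.0458. The nearest genes to Adamts4 were Il3ra (0.0482), Slc38a6 (0.0514) and Ecscr (0.0543), and those to Adamts15 were Tlr8 (0.0931), Entpd7 (0.113) and Nfya (0.118). Adamts9 was nearest to Dpp4 (0.0951), Fmr1 (0.102) and Cmpk2 (0.109). Adamts1, with its decrease on the hTNF arrays alone, was nearest to Has1, a hyaluronan synthase, at 0.0897, then Errfi1 at 0.164 and Dio2 at 0.166. Has1 differed by 0.01 in joints labelled null and by -0.66 in hTNF joints.

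Related genes were counted from lists of the same pathway, beside a median of -0.02 over all genes in both comparisons. Of all genes, 43.0% were called in joints labelled null, 19.1% higher and 23.8% lower. In hTNF joints 36.1% were called, 16.5% higher and 19.6% lower, and these shares stand beside each list below. The lists, too, were chosen with earlier results of these data known. Of 12 other ADAM genes, 9 were tested, and 6 rose and 2 fell in both transgenic groups, with a median of 0.62 in joints labelled null and 0.52 in hTNF joints. Adam17, the sheddase that releases membrane TNF, rose by 1.79 ± 0.13 in joints labelled null and 1.49 ± 0.13 in hTNF joints. Adam12 rose by 1.23 ± 0.19 in joints labelled null and 1.26 ± 0.19 in hTNF joints, and Adam19 by 1.21 ± 0.12 in joints labelled null and 1.18 ± 0.12 in hTNF joints. Adam22, which lacks protease activity and is best known from neurons, fell by 1.09 ± 0.16 in joints labelled null and 1.31 ± 0.16 in hTNF joints. Adam8 exceeded all of these in size. The other gene that fell, Adam33, named after its values were seen, was at -0.42 ± 0.13 in joints labelled null and -0.38 ± 0.13 in hTNF joints. Its call ended in 4 of 10 sets with arrays left out in joints labelled null and in 7 of 10 in hTNF joints, and without wild-type array 1 its adjusted p was 0.284 and 0.4 in these comparisons.

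Of 14 other ADAMTS genes, 7 were tested, and 3 rose and 1 fell in joints labelled null while 2 rose in hTNF joints. Adamts7, which cuts cartilage oligomeric matrix protein, rose by 1.73 ± 0.28 in joints labelled null and 1.36 ± 0.28 in hTNF joints. Adamts3, a procollagen-processing member, rose by 0.83 ± 0.22 in joints labelled null and 0.67 ± 0.22 in hTNF joints, but its calls ended in 3 and 5 of 10 sets with arrays left out in these comparisons, among them the loss of either wild-type array. Without wild-type array 1 the count in joints labelled null was 1 higher and 0 lower, and without wild-type array 2 or array 3 labelled null it was 2 higher and 0 lower. Of 4 tested ADAMTS-like genes, which lack the protease domain, none was called in hTNF joints. Adamtsl5 differed by -0.55 ± 0.19 in joints labelled null, a call that ended in 6 of 10 sets with arrays left out, and by -0.49 ± 0.19 in hTNF joints, where it was called in 3 of those 10 sets (adjusted p = 0.0491 and 0.0837 on all arrays).

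The transcript of the main substrate fell. Acan, which encodes aggrecan, read 10.26, 10.44 and 10.29 in joints labelled null, 10.67, 10.64 and 10.31 in hTNF joints and 12.06 and 11.72 in wild type. No transgenic array overlapped with wild type, and Acan fell by 1.56 ± 0.14 in joints labelled null and by 1.35 ± 0.14 in hTNF joints (adjusted p = 6.01e-05 and 0.00019). Of 6 tested genes of substrates and link proteins, 4 fell in joints labelled null and 2 in hTNF joints, with 1 in either comparison without wild-type array 1. Hapln1, the cartilage link protein, fell by 0.95 ± 0.20 in joints labelled null and 0.80 ± 0.20 in hTNF joints on the log2 scale. Without wild-type array 1 its adjusted p was 0.0544 in joints labelled null and 0.129 in hTNF joints, and the call in hTNF joints also ended without hTNF array 3. Vcan, which encodes versican, had differences of 0.08 ± 0.12 in joints labelled null and -0.21 ± 0.12 in hTNF joints, neither called. The part of the chondrocyte marker decrease, given above, in that of Acan was not tested, and arrays do not measure cleavage of the protein.

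Genes that activate, bind or clear these enzymes were mixed, with 4 higher and 2 lower of 10 tested in both groups. Pcsk6, a convertase that activates ADAMTS proenzymes, fell by 1.78 ± 0.15 in joints labelled null and 1.69 ± 0.15 in hTNF joints. Furin, the other convertase of the list, was named after its values were seen. It rose by 0.67 ± 0.12 in joints labelled null and 0.40 ± 0.12 in hTNF joints (adjusted p = 0.00187 and 0.03). The Furin call in hTNF joints ended in 4 of 10 sets with arrays left out. Reck, a membrane-anchored protease inhibitor, fell by 1.02 ± 0.16 in joints labelled null and 0.81 ± 0.16 in hTNF joints. Sdc1, a cell-surface proteoglycan, rose by 1.58 ± 0.13 in joints labelled null and 1.31 ± 0.13 in hTNF joints. Fbln2, a matrix protein, rose by 1.20 ± 0.13 in joints labelled null and 0.85 ± 0.13 in hTNF joints. Lrp1, the endocytic receptor of Adamts4, Adamts5 and Timp3, rose by 0.45 ± 0.11 in joints labelled null and 0.36 ± 0.11 in hTNF joints. Both calls ended without wild-type array 2 (adjusted p = 0.103 in joints labelled null and 0.298 in hTNF joints), and the call in hTNF joints ended in 5 of 10 sets with arrays left out. In hTNF joints, 2 of the 10 were higher without that array, as without hTNF array 2 or 3. Sdc4, which binds Adamts5, had differences of -0.27 ± 0.18 in joints labelled null and -0.29 ± 0.18 in hTNF joints that were not called.

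Of 14 tested cytokines and factors known to induce these genes, 12 rose in joints labelled null and 11 in hTNF joints, and none fell. Of all genes, 19.1% rose in joints labelled null and 16.5% in hTNF joints. Il1b, which induces Adamts4 and Timp1, rose by 3.79 ± 0.25 in joints labelled null and 2.75 ± 0.25 in hTNF joints. Cebpb, a transcription factor of inflammatory genes, rose by 1.64 ± 0.15 in joints labelled null and 1.05 ± 0.15 in hTNF joints. Lif, a cytokine of the interleukin 6 family, rose by 1.33 ± 0.19 in joints labelled null and 1.04 ± 0.19 in hTNF joints, and the transcription factor Runx1 by 1.25 ± 0.12 in joints labelled null and 1.02 ± 0.12 in hTNF joints. Without wild-type array 2, 5 of the 14 rose in hTNF joints. The part of these cytokines and factors in the member differences was not tested. Of 12 tested matrix metalloproteinases, the other main targets of TIMPs, 9 rose in joints labelled null and 8 in hTNF joints. Mmp3, stromelysin 1, rose by 4.93 ± 0.17 in joints labelled null and 4.77 ± 0.17 in hTNF joints, and Mmp13, a collagenase, by 2.97 ± 0.23 in joints labelled null and 2.64 ± 0.23 in hTNF joints. Mmp12, the macrophage elastase, rose by 2.48 ± 0.72 in joints labelled null and 2.73 ± 0.72 in hTNF joints, calls that ended without wild-type array 1 (adjusted p = 0.163 in joints labelled null and 0.139 in hTNF joints). The call in joints labelled null also ended without array 2 of that group. Mmp9 rose by 2.18 ± 0.53 in joints labelled null and 1.95 ± 0.53 in hTNF joints, with wild-type arrays at 8.62 and 10.93. Its call in hTNF joints ended in 3 of 10 sets with arrays left out.

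**Figure D3:**
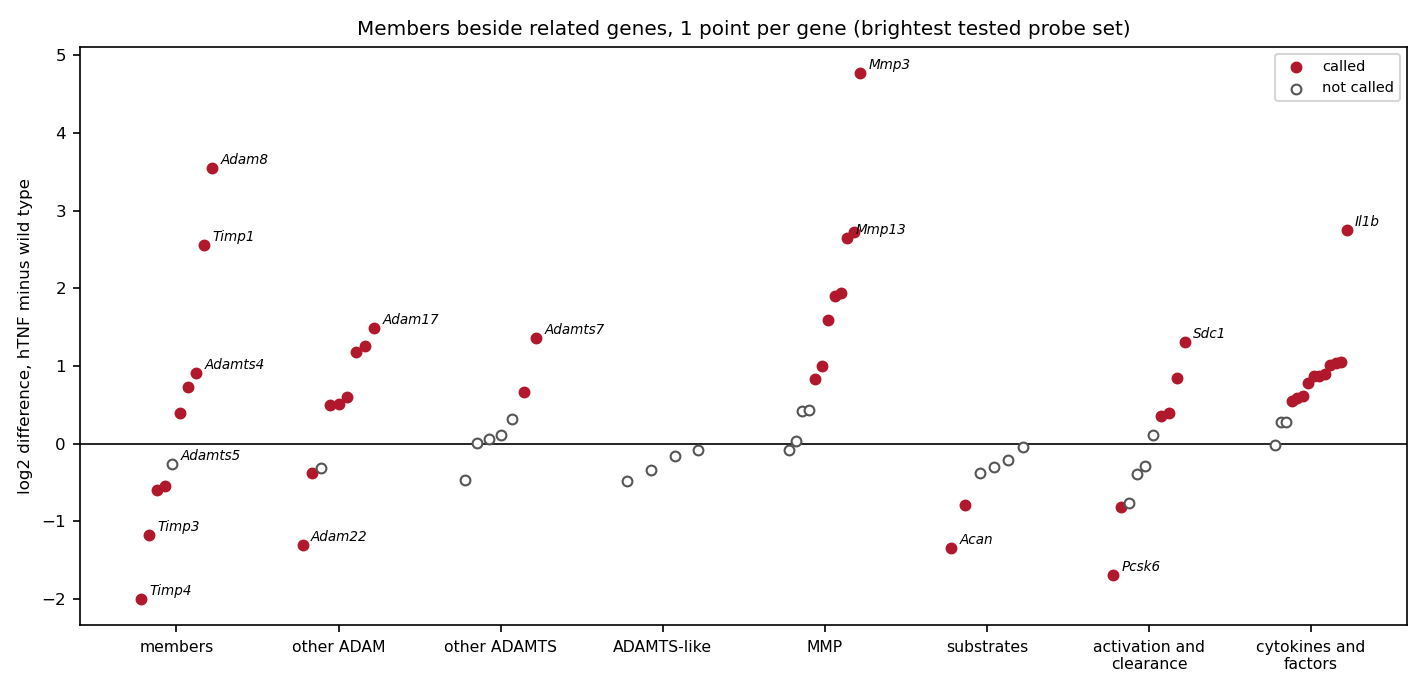
Log2 difference, hTNF minus wild type, for the 10 members and 7 lists of related genes, 1 point per gene from its brightest tested probe set; filled points were called. Adam8 at 3.55 lies above the other ADAM and ADAMTS genes, Timp4 at -2.0 lies below every gene of the lists shown, and Mmp3 at 4.77 is the highest point.

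Whether the group labelled Sphk1 null differed from the hTNF group labelled normal was asked of the same 10 genes. None was called, in a comparison in which limma called 0.0162% of all genes, 2 in all. At an unadjusted p under 0.05 there were 2 member genes, both higher in joints labelled null, against 6.27% of all genes. By probe set, the arrays of the groups did not overlap for 3 of 23, against 11.2% of all tested probe sets. These were those of Adamts1, Adamts15 and Adam8, each higher in joints labelled null.

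Adamts1 had the largest of these differences, 0.70 ± 0.10 or 1.63-fold, with an interval of 0.47 to 0.93 and all 3 arrays labelled null, at 8.74 to 8.89, above the hTNF arrays, at 8.09 to 8.19. By p-value it ranked 7 of 24115, and its adjusted p in limma was 0.232, between 0.068 and 0.909 over the alternatives. Adamts15 was higher by 0.46 ± 0.13, or 1.38-fold, with an interval of 0.17 to 0.75 and an adjusted p of 0.558. Adam8 differed by 0.19 ± 0.11, with an interval of -0.05 to 0.44 (adjusted p = 0.699). Endothelial markers summed to 7050 to 7950 in joints labelled null, 5520 to 7290 in hTNF joints and 9630 to 10900 in wild type. Of these 10 markers, 4 were lower than wild type in joints labelled null and 9 in hTNF joints. Between the transgenic groups, 0 of the 10 were called, and the endothelial sums overlapped. Adipocyte sums did not overlap, at 10100 to 12500 in joints labelled null and 14000 to 18300 in hTNF joints. Nor did synovial fibroblast sums, at 90100 to 96800 in joints labelled null and 83800 to 89000 in hTNF joints. In these 2 lists, too, 0 markers were called between the transgenic groups. The part of any of these cell types in the Adamts1 difference was not tested.

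The intervals of the remaining members also included 0. Timp1 differed by 0.18 ± 0.11, Timp2 by 0.13 ± 0.06, Adamts4 by 0.17 ± 0.14 and Adamts5 by 0.19 ± 0.10. Adamts9 differed by 0.00 ± 0.15, Timp3 by -0.05 ± 0.10 and Timp4 by -0.17 ± 0.22, the last with an interval of -0.66 to 0.32. A probe set of Adamts5 that is not its brightest had a difference of -0.41 ± 0.16, opposite in sign to the brightest (adjusted p = 0.634). Over the 10 genes the half-width of the interval was 0.145 to 0.485 before any adjustment over probe sets. A call needed more than this, since Adamts1 and Adamts15 exceeded theirs and were not called. No gene of the related lists was called either, and the largest difference named above, that of Il1b, was 1.04 ± 0.23 (adjusted p = 0.438).

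**Figure D4:**
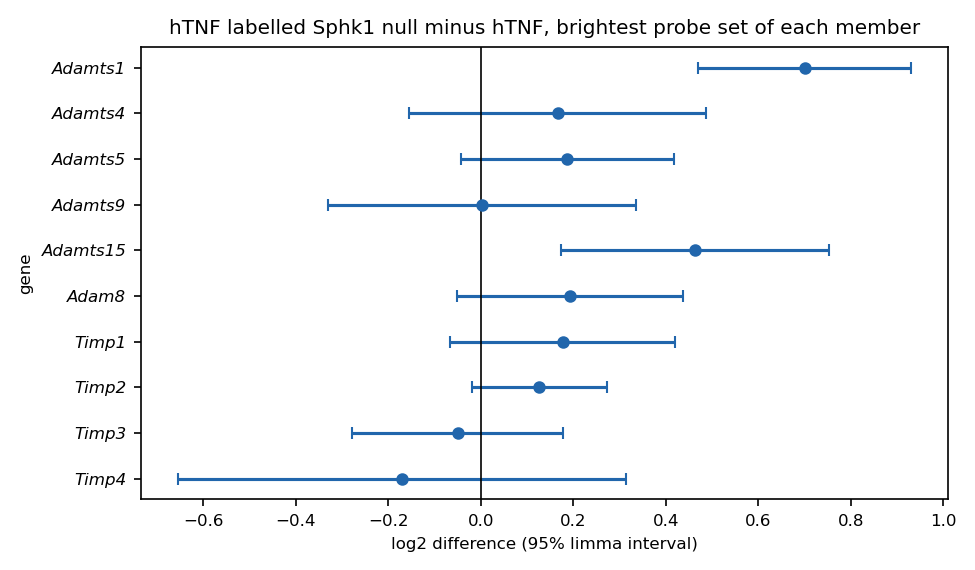
Log2 difference with its 95% limma interval between hTNF joints labelled Sphk1 null and hTNF joints, for the brightest probe set of each of the 10 members. The intervals of Adamts1 (0.47 to 0.93) and Adamts15 (0.17 to 0.75) lie above 0, those of the other 8 include 0, and none of the 10 was called after adjustment over all probe sets.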

How the data were processed

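Total RNA of whole ankle joints was isolated with TRIzol and column purification and labelled as biotin-cRNA, per the labels' protocols. The authors deposited 1 table of log2 values, 8 arrays by 45101 probe sets, with array medians of 6.84 to 6.89. The submitters' processing notes name Affymetrix Expression Console, RMA and MAS5; the sources used here do not say which of them made the values. Signal over background is therefore known only through the low values of the table, and the number of arrays limits the precision.

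The 64 control probe sets were left out. Of the rest, 34945 had 1 gene in the platform annotation, 932 several and 9160 none, and 34754 matched RefSeq names. limma 3.58.1 in R 4.3.3 (lmFit, eBayes with an intensity trend, 1 mean per group, all 8 arrays, 5 residual degrees of freedom) tested the 24115 probe sets above 6.87 on at least 2 arrays, with Benjamini-Hochberg adjustment per comparison. The script was tested on simulated data. All members were named, with up to 4 genes per related list by size of called change in hTNF against wild type, some genes given always (Acan, Vcan, Lrp1, Sdc4, Il1b, the synapsins), and the 3 nearest profiles of each called member. Members and lists were chosen with earlier results of these data known. Alternatives changed the filter, normalization, offset, variance model, samples, probe-set summary, replicate block and skin signal, and left out arrays. Replicate numbers were taken as unpaired: deviations of same-numbered arrays of the transgenic groups correlated at 0.228, 0.0545 and 0.251. No 2 arrays held identical values.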

Additional observations from a re-analysis of the deposited data

How the results depend on the processing

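Over 20 alternatives the number of called members was 6 to 8 in joints labelled Sphk1 null against wild type, 7 to 10 in hTNF against wild type and 0 between the transgenic groups. Adam8, Timp1, Timp2, Timp3, Adamts15 and, where tested, Adamts4 and Timp4 kept their call and direction against wild type in all of them, and so did Adamts1 in hTNF joints. A filter above the median on all 8 arrays left out Adamts4 and Timp4. Adamts9 lost its call in 8 of 20 alternatives in joints labelled null and in 9 of 20 in hTNF joints. Adamts5 gained one in hTNF joints with array weights, at -0.29 (adjusted p = 0.036), and without the arrays of high skin signal. The cause of these shifts was not tested. The 2 alternatives without arrays of mixed sex-linked or of high skin signal were chosen after seeing the data. The one for skin signal kept array 3 of both transgenic groups, whose keratinocyte sums exceeded those of wild type.

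With the replicate number as a replicate block, 8, 9 and 0 members were called in joints labelled null against wild type, hTNF against wild type and joints labelled null against hTNF, as without it. Calls over all probe sets were 7770, 6515 and 2 with the block and 9395, 7965 and 2 without it. Arrays 1 and 3 labelled null correlated best with the hTNF array of their own number, at 0.228 and 0.251, and array 2 labelled null with hTNF array 3, at 0.37 against 0.0545 for its own number. Between joints labelled null and wild type, same-numbered arrays correlated at 0.273 and 0.185, and between hTNF and wild type at -0.0479 and -0.167. No label says that the numbers mark a shared source, so the arrays were treated as unpaired.

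Signs turned only in differences that were never called. Between joints labelled null and hTNF, array weights gave -0.016 for Adamts9 and 0.011 for Timp3, and the mean of probe sets gave -0.021 for Adamts5 and 0.008 for Timp3. Without the 3 arrays of mixed signal, as without the 2 of high skin signal, Adamts4 was at -0.03 and Timp3 at 0.08. With 1 array left out the range was -0.073 to 0.052 for Adamts9, -0.133 to 0.022 for Timp3 and -0.352 to 0.017 for Timp4. Adamts1 in joints labelled null against wild type was at -0.03 without the mixed arrays and between -0.003 and 0.207 with 1 array left out, the lowest without wild-type array 2. In all, the sign turned in 14 values between the transgenic groups and in 2 for joints labelled null against wild type. Limits are the 2 wild-type arrays, shared by both comparisons, an unstated summary method and a whole-joint tissue.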

Other observations

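In the RefSeq annotation, 3 of the inhibitor genes lie within the span of a synapsin gene, Timp1 within Syn1, Timp3 within Syn3 and Timp4 within Syn2, while Timp2 has no such host. Synapsins are proteins of synaptic vesicles. Only Syn1 was above the filter, and it did not follow Timp1 in size. Syn1 was higher by 0.70 ± 0.20 in joints labelled null (adjusted p = 0.0186) and differed by 0.37 ± 0.20 in hTNF joints (adjusted p = 0.182). The first call ended in 3 of 10 sets with arrays left out, among them the loss of wild-type array 2 (adjusted p = 0.159), and the second difference was called without wild-type array 1. These differences stand against 2.73 ± 0.12 in joints labelled null and 2.56 ± 0.12 in hTNF joints for Timp1. Syn2 and Syn3 stayed below the filter, so no value for the hosts of Timp3 and Timp4 is given. Timp2 lies on chromosome 11, as does Sphk1, with 30 protein-coding genes between them, and its difference between joints labelled null and hTNF was 0.13 ± 0.06 (adjusted p = 0.674).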
